A study of Mus musculus with 24 samples.

Results

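The transcripts of 5 genes, Htra4, Dlk1, Gpcpd1, Auts2 and Cpeb1, were followed in mouse gastrocnemius, a predominantly fast-fibred muscle of the calf. They were chosen from measured values, as genes with low signals in old mice fed ad libitum, so their low level in that group is a description and not a finding. Platform annotation gave them 11 of the 45281 probes on the array, and all 5 genes were among the 8943 genes tested. In the difference between old ad libitum and young mice they held rank 8 (Htra4), 12 (Gpcpd1), 27 (Auts2), 33 (Cpeb1) and 36 (Dlk1) from the lowest of these 8943 genes. The choice had no stated threshold.

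There were 3 groups of male B6D2F1 mice, a hybrid strain, from the colony kept for the National Institute on Aging. They were old mice under caloric restriction aged 24 months (5 mice on 7 Illumina bead arrays), old mice fed ad libitum aged 24 months (6 mice on 7 arrays) and young mice fed ad libitum aged 8 months (6 mice on 10 arrays). No young restricted mice were analysed here, so age and diet cannot be separated in the restricted group when it is set against young mice. How strict the restriction was, and how long it lasted, the labels do not say. Arrays that carry the same mouse name were averaged, and nothing in the labels states outright that the names are separate animals, so each p-value speaks of the spread among these samples, which may be technical. Of 12 markers of the muscle fibre 11 were measured, all but Myh2, and the log2 of their summed signal lay between 18.5 and 18.6 in all 17 mice.

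The genes have different roles. Htra4 encodes a secreted serine protease of the HtrA family, which carries, like Htra1 and Htra3, a module related to the binding proteins of insulin-like growth factors, and it has been studied mostly in human placenta. Dlk1 is an imprinted gene for a membrane protein with epidermal growth factor-like repeats that lacks the domain by which classical Notch ligands activate their receptors. It holds preadipocytes undifferentiated, and in mouse muscle it is known from development and regeneration. Gpcpd1 encodes an enzyme that splits glycerophosphocholine, a breakdown product of the membrane lipid phosphatidylcholine, into choline and glycerol phosphate. Auts2 encodes a nuclear protein of a variant polycomb complex that is known from neurons for activating transcription, and Cpeb1 encodes an RNA-binding protein that recognises elements near the ends of messenger RNAs and controls the length of their poly(A) tails and their translation.

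Promoter sequences of RefSeq (build GRCm38.p6, 250 bases before to 50 bases after the start) were listed for 2 of the 5 genes. Dlk1 and Cpeb1 are shown because only their promoters were available, and not for their expression patterns. For Dlk1 the restricted mice lay inside the young range, and for Cpeb1 below every young mouse. The Dlk1 window lies at chr12:109452573-109452872 on the plus strand and the Cpeb1 window at chr7:81454709-81455008 on the minus strand. Capitals mark matches on either strand to GTAAACA, the core bound by forkhead factors, in Dlk1, and to CACGTG, an E-box, in Cpeb1.
Dlk1: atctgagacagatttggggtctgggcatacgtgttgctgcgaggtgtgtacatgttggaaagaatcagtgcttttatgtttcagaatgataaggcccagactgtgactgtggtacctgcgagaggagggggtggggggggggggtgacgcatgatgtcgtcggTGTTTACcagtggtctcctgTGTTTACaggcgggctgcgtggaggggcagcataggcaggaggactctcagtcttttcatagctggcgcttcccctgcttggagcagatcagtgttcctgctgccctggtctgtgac
Cpeb1: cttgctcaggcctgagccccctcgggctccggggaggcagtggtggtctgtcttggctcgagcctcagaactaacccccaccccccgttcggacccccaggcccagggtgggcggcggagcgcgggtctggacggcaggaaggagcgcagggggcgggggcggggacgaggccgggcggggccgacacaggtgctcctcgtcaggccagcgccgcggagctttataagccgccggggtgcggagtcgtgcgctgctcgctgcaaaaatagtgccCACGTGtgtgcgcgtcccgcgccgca
GTAAACA was found at 2 positions of the Dlk1 window, 87 and 67 bases before the start (distances written as -87 and -67), and was absent from the Cpeb1 window. It occurred in 3.65% of all 32851 promoter windows of this length, and at 2 or more positions in 0.11% of them. The share at 2 or more positions was taken for this motif only. Each marked motif was one that matched in its window, so these shares do not measure how unusual the matches are. CACGTG was found once in the Cpeb1 window, 24 bases after the start, was absent from the Dlk1 window and occurred in 7.15% of all windows. Searched on both strands as well were CANNTG, which includes CACGTG (2 positions in Cpeb1, none in Dlk1, 72.3% of all windows), TATAAA (1 position in Cpeb1, 30 bases before the start at -30, none in Dlk1, 13.6% of all windows) and AGAACA (in neither window, and in 6233 of all 32851 windows). These matches describe letters in a sequence and were not tested as binding sites.

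Levels are given as log2 normalized signal, with 1 value per mouse. Htra4 stood at 7.52, 7.73, 7.71, 7.34 and 7.78 in restricted mice 1 to 5. In the 6 old ad libitum mice it had a lowest value of 5.20, a median of 6.32 and a highest value of 7.61, against 7.24, 7.40 and 8.12 in the 6 young mice. Thus 5 of the 6 old ad libitum mice lay below every young mouse, while mouse 3 of that group, measured on 2 arrays that differed by 0.010, lay inside the young range. None of the 5 restricted mice was below the lowest young mouse. Htra4 was detected (detection p under 0.01) on 23 of the 24 arrays, and the exception was the array of old ad libitum mouse 6. In muscle as a whole, fewer cells that express a gene and less RNA per cell cannot be told apart.

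Dlk1 was the dimmest of the probes used, with raw signals between 98.5 and 199.97. Its levels were 6.82, 6.44, 6.66, 6.38 and 7.005 in restricted mice 1 to 5. They ran from 5.32 over a median of 5.78 to 6.29 in old ad libitum mice, and from 6.11 over 6.52 to 7.02 in young mice. All 5 restricted mice lay above all 6 old ad libitum mice, and 5 of the 6 old ad libitum mice lay below every young mouse. The probe was detected on all 7 arrays of restricted mice, on 3 of the 7 arrays of old ad libitum mice and on all 10 arrays of young mice, so that part of the old ad libitum values are near background. A second probe of Dlk1 was not detected on any array and was not tested.

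Gpcpd1 had levels of 8.80, 8.34, 9.42, 9.11 and 9.09 in restricted mice 1 to 5. In old ad libitum mice the lowest, median and highest levels were 7.26, 8.35 and 8.72, against 9.05, 9.24 and 9.36 in young mice. The young mice were close together, with an SD of 0.12, while the SD was 0.40 in restricted and 0.60 in old ad libitum mice. All 6 old ad libitum mice and 2 of the 5 restricted mice, numbers 1 and 2, lay below the lowest young mouse. Of 3 probes of Gpcpd1, 2 were detected on all 24 arrays and 1 on none.

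Auts2 had levels of 10.71, 10.77, 10.92, 10.41 and 10.77 in restricted mice 1 to 5. In old ad libitum mice they were 10.52, 10.59 and 11.51 at the lowest, the median and the highest, against 11.11, 11.50 and 11.79 in young mice. Mouse 1 was the old ad libitum mouse at 11.51, inside the young range, and the other 5 lay below every young mouse. All 5 restricted mice were below every young mouse too. Of the 4 probes of Auts2, 3 were detected on all 24 arrays and 1 on none.

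Cpeb1, which has 1 probe, was detected on all 24 arrays. It stood at 8.49, 8.83, 8.13, 8.40 and 8.51 in restricted mice 1 to 5. In old ad libitum mice it ran from 8.11 over a median of 8.39 to 8.71, and in young mice from 8.98 over 9.03 to 9.43. Every restricted and every old ad libitum mouse lay below every young mouse, and the restricted and old ad libitum ranges overlapped.

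**Figure D1:**
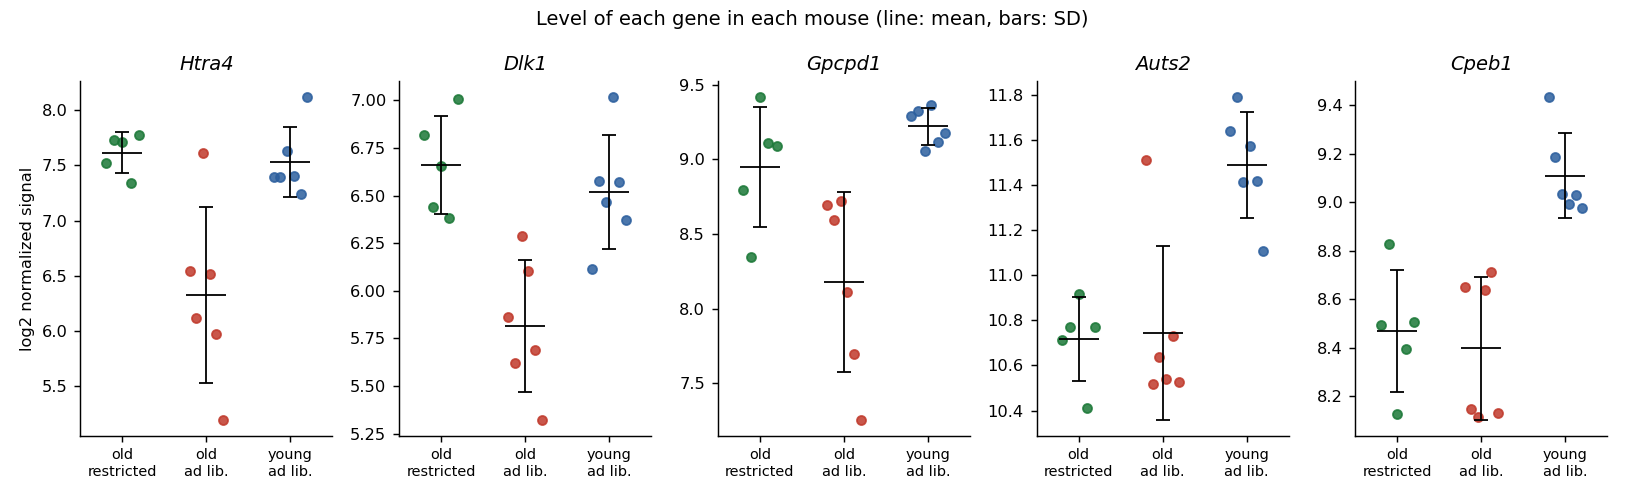
Log2 normalized signal (vertical axis, a separate range for each gene) of Htra4, Dlk1, Gpcpd1, Auts2 and Cpeb1 in each mouse of the old restricted, old ad libitum and young ad libitum groups, with the group mean as a line and the SD as bars. Restricted mice overlap the young mice for Htra4 and Dlk1 and lie below all young mice for Auts2 and Cpeb1.

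Whether the restricted mice differed from young mice was tested, since the difference of these means contains no old ad libitum mouse. The spread behind the p-values was estimated over all 17 mice, old ad libitum mice included. The comparison still shares the young mice with the contrast by which the genes were picked. That contrast favours genes with high young values, so a lower restricted level may follow in part from the choice. Auts2 and Cpeb1 were lower in restricted than in young mice past an adjusted p of 0.05, and Htra4, Dlk1 and Gpcpd1 did not pass. Over all 8943 genes 4.71% passed in either direction, 2.02% as higher and 2.68% as lower. The fit was limma over all 17 mice, with Benjamini-Hochberg adjustment over all genes tested.

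Auts2 averaged 10.72 ± 0.19 (SD, n = 5) in the restricted group and 11.49 ± 0.24 (SD, n = 6) in young mice, a log2 difference of -0.77 ± 0.16 SE, or 1.71-fold lower (limma adjusted p = 0.0138, lower in 5 of 5 restricted mice than in any young mouse). Cpeb1 averaged 8.47 ± 0.25 (SD, n = 5) in the restricted group and 9.11 ± 0.18 (SD, n = 6) in young mice, a log2 difference of -0.64 ± 0.14 SE, or 1.56-fold lower (limma adjusted p = 0.0181, again in 5 of 5). Restricted and young mice did not overlap for 3.04% of all genes with the restricted mice lower, and for 2.09% with them higher. In a fit of the 11 restricted and young mice alone the adjusted p was 0.00458 for Auts2 and 0.0109 for Cpeb1. Cpeb1 lost its call without restricted mouse 3, where the difference was -0.55 (limma adjusted p = 0.0585), and with only the first array of each mouse (-0.54, limma adjusted p = 0.0528). Over all 32 alternatives its adjusted p in limma ran from 0.00451 to 0.0585, and that of Auts2 from 0.00182 to 0.0434.

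The 3 detected probes of Auts2 gave log2 differences of -0.77, -0.67 and -0.80 between restricted and young mice. When all 15268 kept probes were tested singly, the adjusted p was 0.0140 for the probe used (ILMN_1213708), 0.0610 for the second (ILMN_1250157) and 0.0166 for the third (ILMN_3052726), so the second missed the threshold. The used probe is annotated to a cDNA clone and the others to the RefSeq transcript. They share their RNA samples and are not replicates of each other.

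For the other genes the intervals of the difference between restricted and young mice were wide. They came from the fit over all mice, whose spread includes that of old ad libitum mice. Htra4 differed by 0.09 ± 0.28 SE on the log2 scale, with a 95% interval from -0.51 to 0.68 (limma adjusted p = 0.890). Dlk1 differed by 0.14 ± 0.17 SE, with an interval from -0.22 to 0.50 (limma adjusted p = 0.669). For Gpcpd1 the difference was -0.27 ± 0.23 SE, with an interval from -0.76 to 0.22 (limma adjusted p = 0.528). Its second detected probe gave -0.25 ± 0.23 SE. Thus by these intervals a restricted level between 0.703 and 1.60 times the young level remained possible for Htra4. For Dlk1 it was between 0.860 and 1.42 times and for Gpcpd1 between 0.590 and 1.16 times. A fit of the restricted and young mice alone gave the same differences with smaller SE. The SE was 0.142 for Htra4, 0.151 for Dlk1 and 0.152 for Gpcpd1 (limma adjusted p = 0.747, 0.590 and 0.284). None of these genes passed in either fit, and missing the threshold does not show equal levels.

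**Figure D2:**
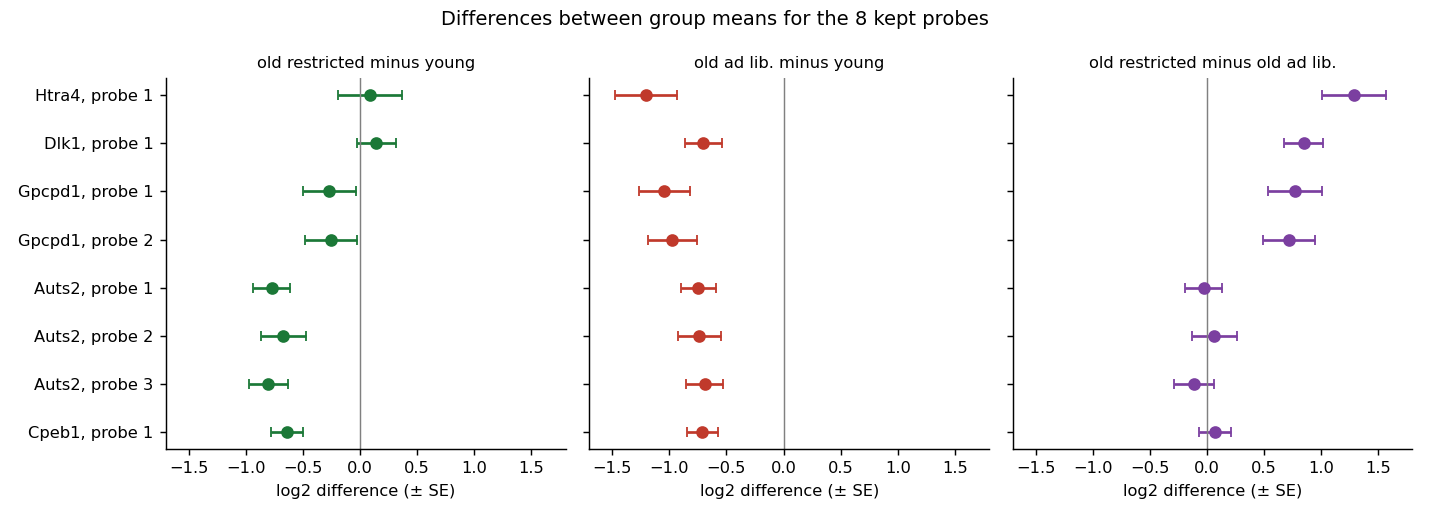
Log2 differences with their SE (horizontal axes) for the 8 detected probes of the 5 genes in the old restricted minus young, old ad libitum minus young and old restricted minus old ad libitum comparisons. All 8 probes are below 0 in old ad libitum against young mice, and in old restricted against young mice the Auts2, Cpeb1 and Gpcpd1 probes are below 0, the Gpcpd1 probes closest to it.

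The contrast by which the genes were picked, old ad libitum against young mice, is given without a test. Htra4 averaged 6.33 ± 0.80 (SD, n = 6) in old ad libitum and 7.53 ± 0.31 (SD, n = 6) in young mice, a log2 difference of -1.20 ± 0.27 SE, or 2.30-fold lower. The difference was -1.46 without old ad libitum mouse 3 and -0.98 without mouse 6, the highest and the lowest mouse of that group. Gpcpd1 averaged 8.18 ± 0.60 in old ad libitum and 9.22 ± 0.12 in young mice (-1.04 ± 0.22 SE, 2.06-fold lower), and its second detected probe gave -0.97. Dlk1 averaged 5.81 ± 0.35 in old ad libitum and 6.52 ± 0.30 in young mice (-0.70 ± 0.16 SE, 1.63-fold lower). These 3 genes had their lowest value in the same animal, old ad libitum mouse 6. Auts2 averaged 10.74 ± 0.38 in old ad libitum and 11.49 ± 0.24 in young mice (-0.75 ± 0.15 SE, 1.68-fold lower), and the other detected probes gave -0.74 and -0.69. Cpeb1 averaged 8.40 ± 0.29 in old ad libitum and 9.11 ± 0.18 in young mice (-0.71 ± 0.13 SE, 1.64-fold lower). Without background correction Htra4 differed by -0.72 and Dlk1 by -0.35, and without both old ad libitum mice 5 and 6 Gpcpd1 differed by -0.69. Over all genes tested 0.716% passed as lower and 2.06% in either direction, from which nothing is read about the 5 genes. Gpcpd1 and Cpeb1 did not overlap between the groups, as 1.03% of all genes did not with old ad libitum mice lower and 1.57% with them higher.

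Against old ad libitum mice the restricted mice had 2.44-fold more Htra4 signal (log2 difference 1.29 ± 0.28 SE), 1.798-fold more Dlk1 (0.85 ± 0.17 SE) and 1.71-fold more Gpcpd1 (0.77 ± 0.23 SE). For Auts2 the difference was -0.03 ± 0.16 SE and for Cpeb1 0.07 ± 0.14 SE. Since low old ad libitum values were the ground for the choice, and a position of restricted mice above them follows in part from it, these differences carry no test. Without background correction the differences were 0.78 for Htra4 and 0.43 for Dlk1, and without both old ad libitum mice 5 and 6 the difference was 0.42 for Gpcpd1. The Dlk1 probe was detected in mice 3 and 4 of the old ad libitum group and in none of the other 4, so its fold is set against a group mostly near background. Over all genes tested 0.917% passed as higher and 3.18% in either direction. Dlk1 alone did not overlap between these groups, beside 0.593% of all genes with restricted mice higher and 1.77% with them lower. Both comparisons with old ad libitum mice use the same 6 mice of that group, and the values are given side by side only. The 3 genes whose restricted mice overlapped the young mice and the 2 whose restricted mice did not were grouped after their values were seen, and the difference between the 2 groups of genes was not tested.

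All 4 chips held arrays of the 3 groups, so each difference was also taken within a chip. Young mouse 6 had arrays on all 4 chips, and the 1 restricted array on chip 4 was a repeat of restricted mouse 2. The chips thus share mice and are not independent repeats of a difference. Cpeb1 was lower in restricted than in young mice on every chip, by log2 differences from -0.78 to -0.29, and Auts2 by -0.89 to -0.47. With the chip as a block and the mouse as a random block, both differences kept their call (limma adjusted p = 0.00314 for Auts2 and 0.0227 for Cpeb1). Htra4 stayed between -0.08 and 0.01 in this comparison within chips, and Dlk1 between -0.09 and 0.81, the highest on chip 1. Gpcpd1 was lower in restricted than in young mice on all 4 chips, by -0.74 to -0.17. Between restricted and old ad libitum mice Htra4 ran from 0.60 to 2.36, Dlk1 from 0.25 to 1.35 and Gpcpd1 from -0.06 to 1.81, and the highest value of each came from chip 3, where old ad libitum mouse 6 was the only mouse of its group.

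**Figure D3:**
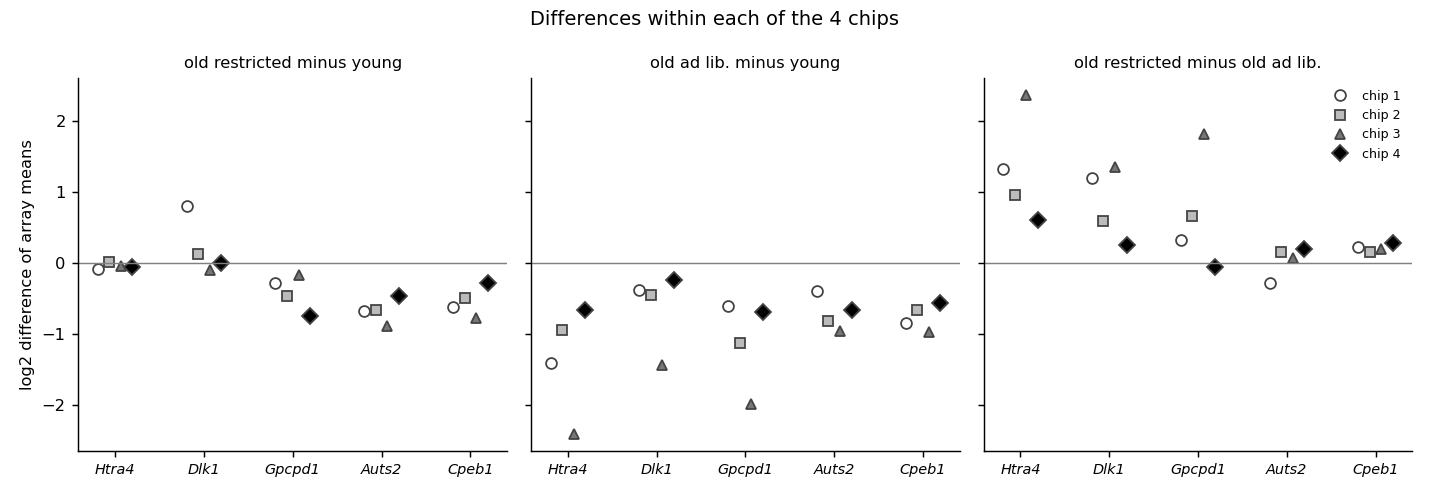
Log2 differences between the mean of the arrays of each group on each of the 4 chips (vertical axis) for the 5 genes in the 3 comparisons. Some mice have arrays on several chips, so the chips are not independent repeats. Auts2 and Cpeb1 are below 0 on all 4 chips in old restricted against young mice, and the chip 3 values of Htra4, Dlk1 and Gpcpd1 lie farthest from 0 in both comparisons with old ad libitum mice.

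Repeated arrays of 5 mice gave an estimate of the spread between arrays of a mouse. Arrays of the same mouse sat on different chips, so this spread includes differences between chips. Whether they came from separate RNA extracts the labels do not say. The SD between arrays of a mouse was 0.08 for Htra4, 0.15 for Dlk1, 0.08 for Gpcpd1, 0.07 for Auts2 and 0.20 for Cpeb1. The SD between mice of a group was 0.52, 0.31, 0.43, 0.29 and 0.25 for the same genes in that order. For Cpeb1 the spread between mice was thus little larger than between arrays of a mouse, with a range of 0.52 between both arrays of restricted mouse 5, and for Htra4 it was several times larger.

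The genes were chosen for low values in old ad libitum mice, not for how mice of a group vary together. Values of those mice also enter the deviations used here, so these correlations are not fully separate from the choice. Deviations of the 17 mice from their group means were correlated for the 10 pairs of genes and for 4 pairs of probes of a gene, with mice permuted within groups (100000 resamples, two-sided, Benjamini-Hochberg over 14 relations). No pair of genes passed. Htra4 and Dlk1 had the smallest p (r = 0.57, permutation p = 0.0346, adjusted p = 0.0968, and Spearman's rho = 0.45, permutation p = 0.101, adjusted p = 0.238). The relation rested on old ad libitum mice 3 and 6, without which r was 0.14. Htra4 and Gpcpd1 gave r = 0.59 (permutation p = 0.0758, adjusted p = 0.177) and rho = 0.37 (permutation p = 0.217, adjusted p = 0.345), and r = 0.09 without the same mice. Auts2 and Cpeb1 gave r = 0.39 (permutation p = 0.171, adjusted p = 0.300) and rho = 0.42 (permutation p = 0.102, adjusted p = 0.238), and r = 0.25 without old ad libitum mouse 1 and young mouse 6. By contrast, the detected probes of Gpcpd1 went together (r = 0.95, permutation p = 1e-05, the smallest these resamples can give, adjusted p = 0.00014, rho = 0.90, permutation p = 6e-05, adjusted p = 0.00084, and r = 0.94 without old ad libitum mouse 1 and restricted mouse 3). For the 3 pairs of Auts2 probes r was 0.61 to 0.79 and rho 0.56 to 0.79, with permutation p from 0.00135 to 0.0286 for r and from 0.00082 to 0.0231 for rho. The pair of the used and the third probe missed the threshold after adjustment (adjusted p = 0.0968 for r and 0.0807 for rho).

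**Figure D4:**
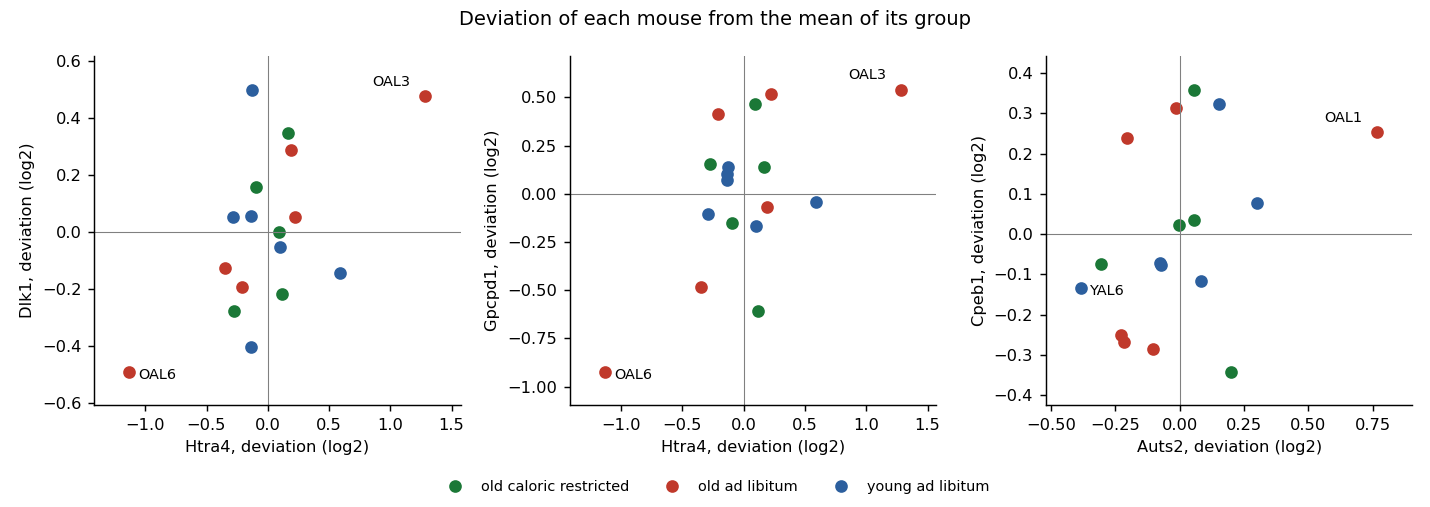
Deviation of each mouse from the mean of its group, in log2 units, for Htra4 against Dlk1, Htra4 against Gpcpd1 and Auts2 against Cpeb1, with old restricted, old ad libitum and young ad libitum mice in separate colours. OAL3 and OAL6 (old ad libitum mice 3 and 6) lie at both ends of the plots that hold Htra4, and OAL1 (old ad libitum mouse 1) and YAL6 (young mouse 6) at the ends of the plot of Auts2 against Cpeb1.

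For each gene the genes with the most similar levels over the 17 mice were listed by Pearson's r, as a description of these mice that includes the differences between groups. For Htra4 they were Reep1, which shapes the endoplasmic reticulum (r = 0.90), Dkk3, a secreted protein of the Dickkopf family (0.87), and Pds5b, a cohesin regulator (0.86). For Dlk1 they were Cdkn1b, a cell cycle inhibitor (0.85), Kat2b, a histone acetyltransferase (0.84), and Htra4 (0.84). Gpcpd1 was most like the ubiquitin ligase gene Ubr3 (0.95), the small GTPase gene Rab12 (0.93) and Gtdc1 (0.92). Auts2 was most like Fsd2 (0.89), the deubiquitinase gene Usp42 (0.87) and Smad3, a transcription factor of TGF beta signalling (0.86). Cpeb1 was most like Tab2, an adaptor of inflammatory kinase signalling (0.86), Ppp3cb, a catalytic subunit of calcineurin (0.84), and Fam222b (0.83). By deviations from group means the closest genes were Reep1 (0.84) and Ift140 (0.81) for Htra4, Tcf7l1 (0.83) and Vps37a (0.82) for Dlk1, Gtdc1 (0.93) and Lgalsl (0.92) for Gpcpd1, Ccdc126 (0.92) and Mrpl52 (0.90) for Auts2, and Slc1a6 (0.82) and Minpp1 (0.80) for Cpeb1. These are the highest correlations over all genes tested and the same mice, and carry no test.

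Around each gene a list of its family or pathway was read, leaving out the 5 genes themselves. Among 9 measured genes of HtrA proteases and insulin-like growth factor-binding proteins, Igfbp5 (1.43-fold, limma adjusted p = 0.0454) and Igfbp7 (1.36-fold, limma adjusted p = 0.0444) were lower in restricted than in young mice, beside 2.68% of all genes passing as lower. Htra2, the mitochondrial protease of the family, rose 1.32-fold in old ad libitum against young mice (limma adjusted p = 0.0241), beside 1.34% of all genes passing as higher. None of this list passed between restricted and old ad libitum mice, where 1 gene had an unadjusted p under 0.05 in limma and Htra1 had a log2 difference of 0.56 ± 0.16 SE (limma adjusted p = 0.0583). The medians of the list were -0.04 in restricted against young, -0.19 in old ad libitum against young and -0.03 in restricted against old ad libitum mice, beside -0.01, 0.02 and -0.02 over all genes tested. Of all 8943 genes, 1923, 1737 and 1771 had an unadjusted p under 0.05 in limma, in the same order. The counts of unadjusted p-values in this and the other lists stand beside these.

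Of 18 measured Notch ligands, receptors and targets other than Dlk1, Heyl, a Notch target gene, was 1.51-fold lower in restricted than in young mice (limma adjusted p = 0.0382) and 1.53-fold lower in old ad libitum mice than in the young group (limma adjusted p = 0.0413). Over all genes 2.68% and 0.716% passed as lower in these comparisons. No other gene of the list passed in these comparisons, and none passed between restricted and old ad libitum mice, where limma gave 2 genes an unadjusted p under 0.05. List medians were -0.02, 0.02 and -0.03 for restricted against young, old ad libitum against young and restricted against old ad libitum mice. Of 30 imprinted genes 11 besides Dlk1 were measured. The neighbours Meg3, Rtl1 and Dio3 of the Dlk1 locus were not among the genes tested. None of the 11 passed in any comparison (3, 2 and 3 genes had an unadjusted p under 0.05 in limma, in the same order), with medians of 0.05, -0.01 and 0.05.

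In the list of phosphatidylcholine and glycerophosphodiester metabolism, 21 genes were measured besides Gpcpd1. Pnpla7, a lysophospholipase that acts upstream of Gpcpd1 by releasing glycerophosphocholine, was 1.25-fold lower in old ad libitum mice than in the young group (limma adjusted p = 0.0275). Slc44a2, a choline transporter-like gene, was 1.21-fold lower in restricted than in young mice (limma adjusted p = 0.0381), and Slc44a1, of the same family, was 1.23-fold lower in restricted than in old ad libitum mice (limma adjusted p = 0.0263). The list medians were -0.05 in restricted against young, -0.08 in old ad libitum against young and -0.02 in restricted against old ad libitum mice. These 3 calls are 1 of 21 genes in each comparison, beside 2.68%, 0.716% and 2.26% of all genes passing as lower.

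None of 25 measured polycomb genes and Auts2 partners passed in any comparison, and limma gave 6, 7 and 6 of them an unadjusted p under 0.05 in restricted against young, old ad libitum against young and restricted against old ad libitum mice. Over all 8943 genes these counts were 1923, 1737 and 1771. The medians of the list were -0.04, -0.07 and -0.02. Among 28 genes of cytoplasmic polyadenylation and Cpeb1 partners, Aurka, a mitotic kinase that activates the Cpeb1 protein in Xenopus oocytes, was 1.48-fold lower in restricted than in young mice (limma adjusted p = 0.0259), beside 2.68% of all genes. Within the family Cpeb2 had log2 differences of 0.04 ± 0.16 SE in restricted against young and 0.25 ± 0.15 SE in old ad libitum against young mice, Cpeb3 of -0.18 ± 0.10 SE and -0.34 ± 0.10 SE, and Cpeb4 of 0.11 ± 0.14 SE and -0.24 ± 0.14 SE, and none of them passed. No gene of this list passed in the comparisons with old ad libitum mice, where limma gave 6 (against young) and 7 (restricted against old ad libitum) an unadjusted p under 0.05, and the medians were 0.00, -0.09 and 0.05 in the order given.

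Markers of other cell types are given beside these genes. All 10 fibroblast markers were below the young level in old ad libitum mice (median -0.54), all 10 lower in restricted than in young mice (median -0.28) and 9 of 10 higher in restricted than in old ad libitum mice (median 0.18). None passed in limma, which gave 6, 1 and 0 of them an unadjusted p under 0.05 in these comparisons. Over all 8943 genes these counts were 1737, 1923 and 1771. The log2 of the summed signal of fibroblast markers ran from 14.4 to 14.7 in restricted, from 14.0 to 14.7 in old ad libitum and from 14.6 to 14.7 in young mice. All 10 slow fibre markers had higher values in restricted than in young mice (median 1.41), and 1 of them, Myh7, passed (limma adjusted p = 0.0490), beside 2.02% of all genes as higher. All 10 had higher values in restricted than in old ad libitum mice (median 1.07), and 9 of 10 in old ad libitum mice against the young group (median 0.39). None passed in these comparisons, where limma gave 2 and 0 of them an unadjusted p under 0.05. Slow fibre markers had summed log2 signals from 13.3 to 16.1 in restricted, 12.9 to 15.2 in old ad libitum and 13.01 to 14.9 in young mice. All 4 measured erythroid markers were higher in old ad libitum mice than in the young group (median 0.87, none passed and 2 had an unadjusted p under 0.05 in limma), with sums from 12.8 to 15.0 in old ad libitum and 13.01 to 13.9 in young mice. All 4 were also higher in restricted than in young mice (median 0.57), and none passed. Of 11 measured macrophage markers 9 had lower values in restricted than in old ad libitum mice (median -0.28), and Mpeg1 and Tyrobp passed as lower (limma adjusted p = 0.00347 and 0.0421), beside 2.26% of all genes. Against young mice, 10 of the 11 macrophage markers were lower in restricted mice (median -0.19) and 8 were higher in old ad libitum mice (median 0.13), and none passed. The sums of macrophage markers ran from 11.5 to 12.04 in restricted, 11.4 to 12.6 in old ad libitum and 11.9 to 12.2 in young mice. Ccl5, the 1 measured gene of 12 lymphocyte markers, was 2.30-fold lower in restricted than in old ad libitum mice (limma adjusted p = 0.0170), with levels from 4.99 to 5.66 in restricted and 5.85 to 7.20 in old ad libitum mice. The 5 measured tendon markers had medians of -0.64 in restricted against young and -0.54 in old ad libitum against young mice, and none passed (2 had an unadjusted p under 0.05 in limma in each). Satellite cell markers (5 of 10 measured, Pax7 and Myf5 not among them) had a median of 0.14 in old ad libitum against young mice and sums from 11.01 to 11.2 in old ad libitum and from 10.95 to 11.3 in young mice. Adipocyte, endothelium, peripheral nerve and smooth muscle markers had list medians between -0.19 and 0.29, and none passed in any comparison (at most 2 of a list had an unadjusted p under 0.05 in limma). The part of these markers in the results on the 5 genes was not tested.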

How the data were processed

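Gastrocnemius RNA of 17 mice was measured on 24 Illumina bead arrays. Per the file headers, the deposited table gives, for each probe and array, a mean signal intensity with its detection p-value. GenomeStudio produced it per the submitters' processing notes. The authors' second deposited table holds normalized intensity values, whose medians of 98.6 to 98.7 differ little between arrays, and served as an alternative. Its method is not given in the sources used here. Median raw signals ran from 82.9 to 119.7, and 13625 to 15176 probes were detected per array. The number of mice and arrays limits the precision.

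Background correction, quantile normalization and conversion to log2 of the deposited signals were done by neqc (limma 3.58.1, R 4.3.3, offset 16), which takes the negative controls from the detection p-values. A probe was kept where 5 or more arrays had a detection p under 0.01 (15268, including 8 of the 11 probes of the 5 genes). The platform annotation gave 34885 probes 1 gene symbol and 18 several, listed no gene for 10378, and named the probes; each gene was read from its probe with the highest mean. Arrays of a mouse were averaged. Groups were compared with lmFit and eBayes in 1 fit over 17 mice, two-sided, with Benjamini-Hochberg adjustment over 8943 genes and a threshold of 0.05. Median log2 differences over all genes are given beside those of the lists. The fit was also run on simulated data with independent genes and the same spread in every group. That simulation does not cover unequal spreads between groups, such as those of Htra4 and Gpcpd1.

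The genes, lists and comparisons were chosen with earlier results of these data known. Genes named are the 5 genes, list members that passed (at most 4 per list), and the closest 3 genes by levels and 2 by deviations, with clone and locus names left out. Relatives named without passing (Htra1, Cpeb2, Cpeb3, Cpeb4), and the single cell type markers with values (Myh7, Mpeg1, Tyrobp, Ccl5), were picked after their values were seen. Alternatives were other background corrections, scalings, filters, probe choices and models, a replicate block, and leaving out each mouse. Another was chosen after seeing the data: leaving out old ad libitum mice 5 and 6 together. Same-numbered mice of different groups share only a number, with correlations of their deviations from -0.25 to 0.19, and over 0.1 in 5 of 16 pairs. Figures were drawn with matplotlib 3.10.9.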

Additional observations from a re-analysis of the deposited data

Results flagged for a closer look

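Of 24 sets of values checked (8 detected probes in 3 groups of 5 or 6 mice), 1 held a mouse far from the rest. About 1 in 20 independent sets would be picked by chance, but probes of a gene share their mice. Old ad libitum mouse 1 had a log2 level of 11.51 for the used probe of Auts2, while the next highest mouse of that group was at 10.73, and this gap was 0.785 of the range of the group, above the critical 0.625. Without this mouse the log2 difference of Auts2 between old ad libitum and young mice was -0.90, against -0.75 with it.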

How the results depend on the processing

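Over 32 alternatives the differences of Htra4, Dlk1 and Gpcpd1 between restricted and young mice kept their direction and stayed short of the threshold, with log2 differences from 0.03 to 0.20, from 0.06 to 0.24 and from -0.39 to -0.12. Auts2 stayed past the threshold with -0.85 to -0.70. In some alternatives, such as leaving out an old ad libitum mouse or changing the filter, these differences cannot change. Only their SE and p-values can move there. Cpeb1 lay between -0.73 and -0.55 without each mouse in turn, and missed the threshold without restricted mouse 3 and with the first array of each mouse (-0.54). The cause was not tested. Without background correction the log2 difference of Dlk1, the dimmest gene, was -0.35 in old ad libitum against young and 0.43 in restricted against old ad libitum mice, and the authors' values gave -0.35 and 0.43. Htra4 was at -0.72 and 0.78 in both settings. They also gave the same counts of genes passing, 441 for restricted against young, 216 for old ad libitum against young and 298 for restricted against old ad libitum mice. The authors' values are therefore not a check separate from the setting without background correction. Without both old ad libitum mice 5 and 6, Htra4 differed by 0.92 between restricted and old ad libitum mice and Gpcpd1 by 0.42.

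Counts over all genes moved more. For old ad libitum against young mice, with 184 genes in the fit described, the count was 95 with no detection filter, 284 over 24 arrays with the mouse as a random block, 281 with the chip added, 510 over all kept probes, 286 with the mean of the probes of a gene, 482 with array weights, and 108 without old ad libitum mice 5 and 6. Scaling to the 75th percentile of probes detected on all arrays gave 49.7% of its calls as higher, against 65.2%. For restricted against young mice, with 421 genes, it was 273 with no filter, 645 over all probes and 1147 with array weights. For restricted against old ad libitum mice, with 284 genes, it was 24 in a fit of those mice alone and 90 without old ad libitum mice 5 and 6. The replicate block, in which a number pairs no mice, gave 244 for restricted against young, 107 for old ad libitum against young and 88 for restricted against old ad libitum mice.

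Without each mouse in turn the count ran from 131 to 691 for restricted against young, from 32 to 262 for old ad libitum against young and from 66 to 502 for restricted against old ad libitum mice. It moved by over 1.5 times in the first without restricted mouse 1 (215), 2 (204), 3 (131), 4 (240) or 5 (691) or young mouse 1 (170), 2 (136), 3 (176) or 4 (194), in the second without old ad libitum mouse 2 (94) or 5 (68) or young mouse 1 (79), 2 (32), 3 (74) or 4 (79), and in the third without restricted mouse 1 (66), 3 (67), 4 (106) or 5 (502) or old ad libitum mouse 2 (180), 5 (120) or 6 (145). Percentages over all genes given beside the 5 genes move with these counts.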
